A study of Mus musculus with 4 samples.

Results

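Brain endothelial and blood-brain barrier genes were read across 4 single arrays of mouse prefrontal cortex. The set held 42 genes, taken by gene name from a roster of junction proteins, growth factor receptors, ligands, transporters, Wnt targets, leukocyte adhesion molecules and surface antigens. Each gene was represented by the brightest of its non-control probes. Of the 42, 40 were well above background on all 4 arrays, out of 20655 gene names measured that way and 27248 gene names with a probe.

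All mice were of the B6J strain and 3 months old. The 4 groups were wild-type mice on a starch diet (the control), wild-type mice on a sucrose diet, mice heterozygous for Glo1 on starch, and Glo1 heterozygous mice on sucrose. Glo1 encodes glyoxalase I, an enzyme that clears methylglyoxal. Feeding began at postnatal day 21 and lasted about 70 days. Prefrontal cortex RNA of 3 mice was pooled in each group, and 200 ng of total RNA was labelled with Cy3 for 1 array, so each group is 1 measurement with no replicate. No difference below has a standard error or a p-value. The labels do not say how the Glo1 allele was made. The 4 arrays lay on 1 slide, so position on the slide and group cannot be told apart.

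The capillaries of the brain are lined by endothelial cells that are sealed by tight junctions, carry few leukocyte adhesion molecules and form few transcytotic vesicles. Nutrients cross these cells through dedicated carriers, while efflux pumps return lipophilic compounds to the blood. Wnt ligands from neural cells keep the barrier programme active, and VEGF and angiopoietin signalling shape the vessels. In bulk cortex, fewer endothelial cells and less RNA per endothelial cell cannot be told apart.

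Levels are given as the processed signal divided by the array's own 75th percentile of signal, and differences as log2 ratios of those levels. A probe's brightness depends on its sequence, so levels are compared for 1 gene between arrays and not between genes. The 75th percentile of signal was 1780 to 1929 across the arrays, 77.6% to 80.2% of spots were well above background, and 0 spots were saturated. Glo1 itself read 4.04 on wild-type starch, 5.53 on wild-type sucrose, 2.74 on heterozygous starch and 3.04 on heterozygous sucrose. It was lower in the heterozygous array on both diets, by -0.56 on starch and -0.86 on sucrose. The defining endothelial markers Cldn5, Pecam1, Cdh5, Tie1 and Flt1 were all measured. Their median difference was -0.06 and -0.10 between the diets in wild-type and heterozygous mice, and 0.16 between the genotypes on either diet. Spots of probes printed 10 times, together with spike-in probes, gave a spread of a difference between arrays of 0.0684 (SD, log2) for the brightest of 4 equal classes of signal, 0.109 and 0.130 for the middle classes and 0.191 for the dimmest. The dimmest class rests on 1 spike-in probe and the second dimmest on 3 repeated probes, against 291 repeated probes in the brightest, so the spread of dim genes is poorly known. It covers the spot alone, not the mice, the pooling or the labelling.

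Cldn5, Egfl7, Mfsd2a, Edn1 and Ly6c1 were all highest on the wild-type starch array. All but Egfl7 were lower on sucrose in both genotypes, Edn1 and Ly6c1 by more than 1.2-fold in each. The promoters of these 5 genes, whose levels stood out, are shown first. Each is the 250 bases before a RefSeq transcript start (build GRCm38.p6), on the strand of the gene, 5′ to 3′; for Egfl7 and Ly6c1, which have several starts, the most upstream is shown. Capitals mark CTTTGA (the core of a TCF/LEF site, through which Wnt signalling acts) and ACGTG (the core of a hypoxia response element), searched on both strands.
Cldn5, chr16:18776597-18776846, plus strand: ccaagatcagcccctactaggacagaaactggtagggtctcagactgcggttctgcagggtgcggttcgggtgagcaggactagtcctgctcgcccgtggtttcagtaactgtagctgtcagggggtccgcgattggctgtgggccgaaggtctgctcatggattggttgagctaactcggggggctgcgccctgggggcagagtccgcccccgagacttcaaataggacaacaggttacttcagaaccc
Egfl7, chr2:26580833-26581082, plus strand: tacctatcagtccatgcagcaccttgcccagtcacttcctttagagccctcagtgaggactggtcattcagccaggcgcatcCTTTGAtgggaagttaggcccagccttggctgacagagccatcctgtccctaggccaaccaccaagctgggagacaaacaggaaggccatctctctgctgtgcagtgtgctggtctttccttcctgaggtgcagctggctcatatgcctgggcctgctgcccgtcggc
Mfsd2a, chr4:122961189-122961438, minus strand: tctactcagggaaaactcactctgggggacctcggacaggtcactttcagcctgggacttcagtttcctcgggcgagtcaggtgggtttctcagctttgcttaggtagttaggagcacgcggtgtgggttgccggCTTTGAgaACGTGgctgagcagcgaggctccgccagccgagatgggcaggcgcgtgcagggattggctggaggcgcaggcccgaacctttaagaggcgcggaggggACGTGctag
Edn1, chr13:42301226-42301475, plus strand: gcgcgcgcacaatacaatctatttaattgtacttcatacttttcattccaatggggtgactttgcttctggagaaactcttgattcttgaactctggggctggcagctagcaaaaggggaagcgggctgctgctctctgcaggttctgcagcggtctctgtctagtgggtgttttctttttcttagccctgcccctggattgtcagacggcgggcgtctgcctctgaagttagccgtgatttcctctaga
Ly6c1, chr15:75048838-75049087, minus strand: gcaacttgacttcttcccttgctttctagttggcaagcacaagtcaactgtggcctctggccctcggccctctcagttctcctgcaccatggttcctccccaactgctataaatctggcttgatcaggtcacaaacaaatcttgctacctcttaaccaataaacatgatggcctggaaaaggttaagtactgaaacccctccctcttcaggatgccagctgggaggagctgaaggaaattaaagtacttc

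A promoter was found for 30 of the 42 genes. CTTTGA stood in the windows of 7 of these 30 (23.3%), against 15.8% of 27025 mouse genes with a window. The genes shown here had more windows each, 43 for 30 genes against 32851 for all, and counted per window of 250 bases the shares were 16.3% and 13.8%. ACGTG stood in 7 of the 30 genes (per window 16.3%, against 16.6%), and CCGGAA, the core of an ETS factor site, in 4 (per window 9.3%, against 12.03%). A match is a run of letters, not a site shown to be bound. Of the 5 windows printed, CTTTGA occurred in those of Egfl7 and Mfsd2a, and ACGTG in that of Mfsd2a.

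Over all 4 arrays, 18 of the 40 genes spanned less than 1.2-fold (45%), against 49.4% of all genes. Between the diets, 27 of 40 stayed within 1.2-fold in wild-type mice (all genes 73.7%) and 33 in heterozygous mice (all genes 79.1%). Between the genotypes, 32 of 40 did so on starch (all genes 79.3%) and 35 on sucrose (all genes 81.3%). In wild-type mice a group led by the surface antigens Ly6a and Ly6c1, the secreted endothelial factor Egfl7 and the tight junction protein Cldn5 was lower on sucrose, and part of that group was also lower in the heterozygous starch array. Podxl, a sialomucin of the luminal membrane, had its highest level on the heterozygous sucrose array.

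**Figure D1:**
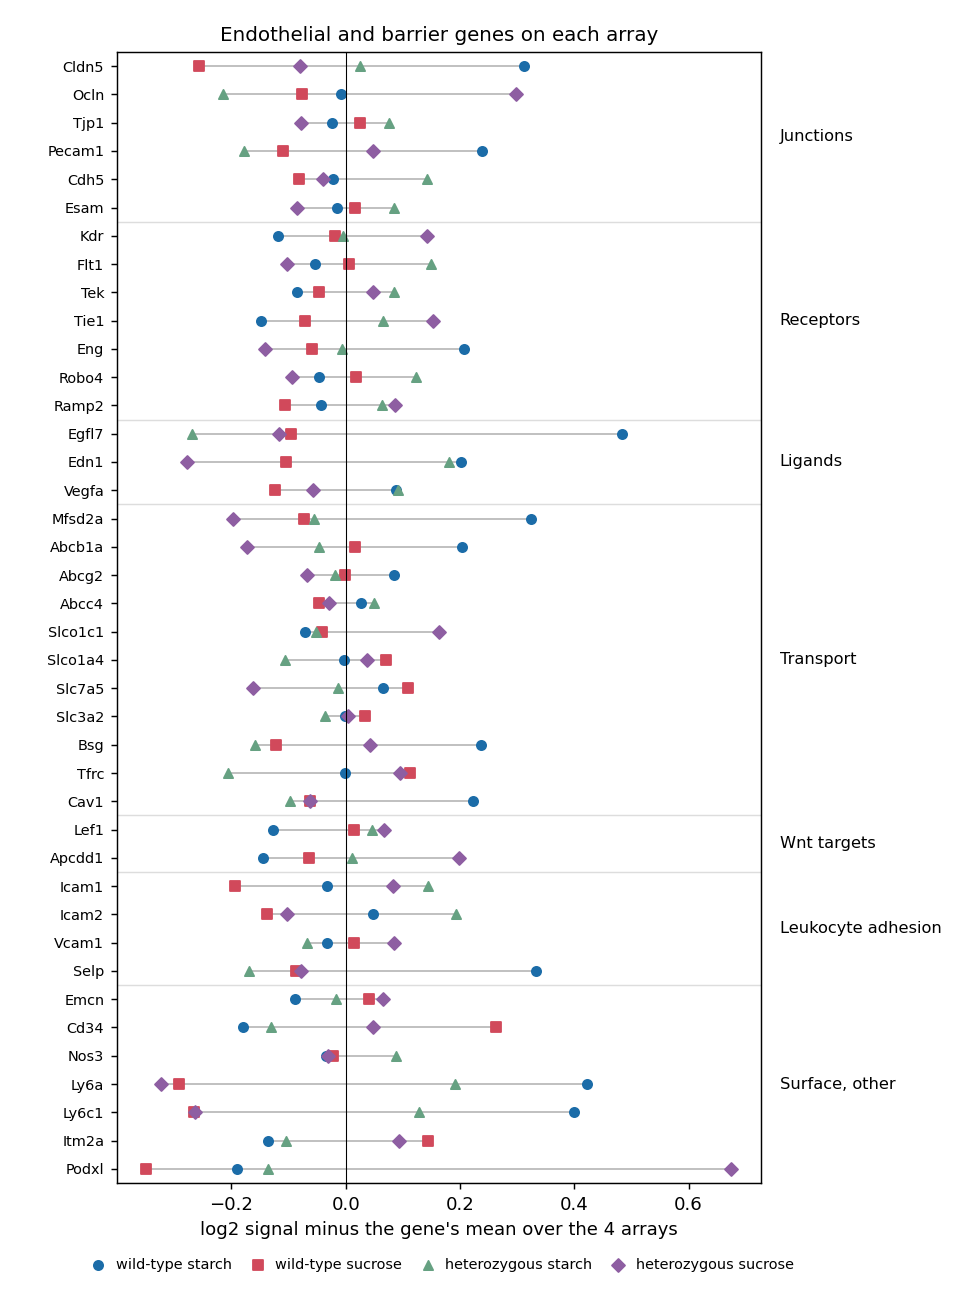
Level of each of the 40 measured genes on the 4 arrays, as log2 signal (log2 of multiples of the array's 75th percentile) minus the gene's mean over the arrays, 1 symbol per array and grouped by role. The wild-type starch array (circles) is the highest for Egfl7, Ly6a, Ly6c1, Cldn5, Mfsd2a and Selp, and the heterozygous sucrose array (diamonds) stands to the right for Podxl.

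Past 1.5-fold in either direction, the sucrose against starch comparison in wild-type mice called 2 of 40 genes, against 5.93% of all genes. In heterozygous mice it called 1 of 40, against 5.57%. The heterozygous against wild-type comparison called 1 of 40 on starch, against 3.97% of all genes, and 1 of 40 on sucrose, against 4.58%. Heterozygous sucrose against wild-type starch, in which both diet and genotype differ, called 4 of 40, against 7.32%. In any of the 4 comparisons of 1 factor, 4 of 40 passed this size (Ly6a, Ly6c1, Egfl7 and Podxl), against 12.5% of all genes. These counts are small and lie near the share of all genes. Where both factors differed, quantile normalization gave 2 in place of 4.

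A smaller size, 1.2-fold, was set after the data had been seen. On sucrose in wild-type mice 11 of 40 genes were lower by that size (27.5%), against 13.8% of all genes, and 2 were higher, against 12.6%. On sucrose in heterozygous mice 4 were lower, against 8.98%, and 3 were higher, against 11.9%. In heterozygous mice on starch 8 of 40 were lower than wild type (20.0%), against 12.3% of all genes, and 0 were higher, against 8.39%. On sucrose 1 was lower in heterozygous mice, against 8.49%, and 4 were higher, against 10.2%; the 4 became 2 under normexp, median scaling, the mean over probes or a filter for bright probes. The 8 genes lower in heterozygous mice on starch were all among the 11 lower on sucrose in wild-type mice. Both comparisons subtract the same wild-type starch array, so this overlap is no independent observation.

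**Figure D2:**
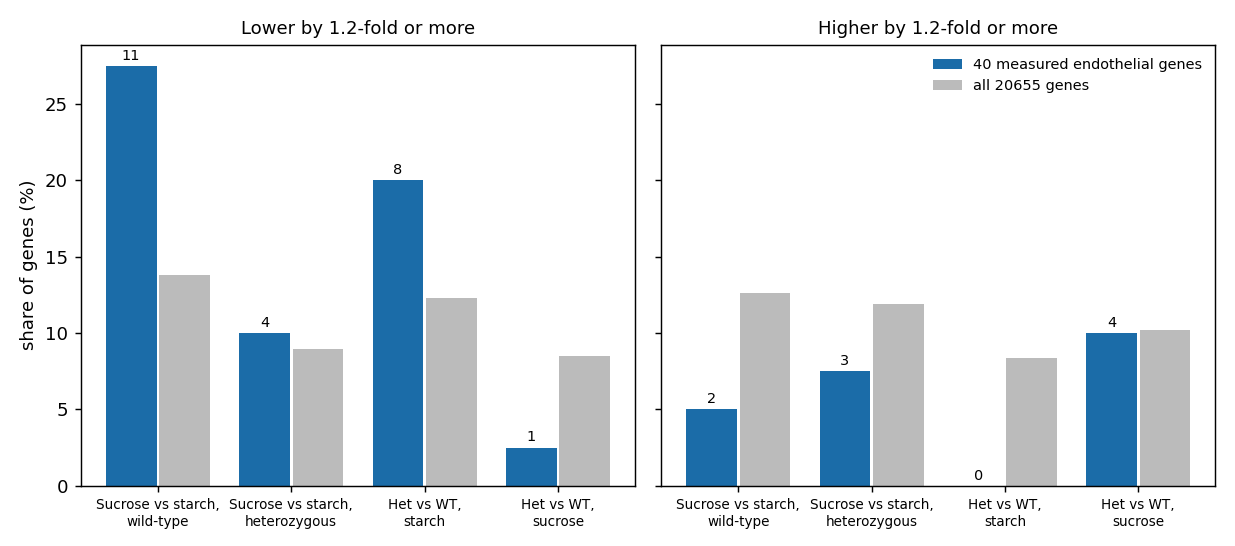
Share of genes (%, bars from 0) lower (left) or higher (right) by 1.2-fold or more in each comparison, for the 40 measured endothelial genes, with their number above the bar, and for all 20655 measured genes. The endothelial share exceeds that of all genes most on the side of lower levels in wild-type mice on sucrose, 27.5% against 13.8%.

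Counted by sign alone with the main processing, the genes did not lean far either way. They were lower on sucrose in 21 of 40 cases in wild-type mice (all genes 50.1%) and in 20 of 40 in heterozygous mice (all genes 49.9%). They were lower in heterozygous mice in 19 of 40 cases on starch (all genes 54%) and 18 of 40 on sucrose (all genes 54.9%). With the mean over probes 26 of 40 were lower on sucrose in wild-type mice. Across the alternatives 17 to 25 were lower in heterozygous mice on sucrose, so these counts depend on the processing. The median difference of the 40 was -0.06 between the diets in wild-type mice (0.028 over probes above the median signal) and -0.01 in heterozygous mice, and 0.01 between the genotypes on starch and 0.00 on sucrose. The medians of all genes lay between -0.02 and 0.00. The wild-type starch array was the highest of the 4 for 13 genes (all genes 31.4%), the wild-type sucrose array for 6 (all genes 26.6%), the heterozygous starch array for 11 (all genes 20.2%) and the heterozygous sucrose array for 10 (all genes 21.7%).

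Among the tight and adherens junction genes, Cldn5, the main claudin of brain endothelial tight junctions, had the largest difference between the diets. Its level was 4.60 on wild-type starch, 3.10 on wild-type sucrose, 3.77 on heterozygous starch and 3.50 on heterozygous sucrose. It was 1.48-fold lower on sucrose in wild-type mice (log2 -0.57) and 1.08-fold lower in heterozygous mice (log2 -0.10). Ocln, the tight junction protein occludin, read 0.0854, 0.0815, 0.074 and 0.106 in the same order, and only the heterozygous sucrose array stood clearly above the others. It was 1.43-fold higher on sucrose in heterozygous mice (log2 0.51) and 1.05-fold lower in wild-type mice. Its probe lay in the second dimmest class of signal, where the spot spread is 0.130.

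Pecam1, a homophilic adhesion molecule of endothelial contacts, read 0.151, 0.118, 0.113 and 0.132, with the wild-type starch array the highest. It was lower on sucrose in wild-type mice (log2 -0.35) and higher on sucrose in heterozygous mice (log2 0.22). The scaffold protein gene Tjp1, the vascular cadherin gene Cdh5 and the junctional adhesion gene Esam each stayed within 1.2-fold in every comparison of 1 factor. Tjp1 ranged from 3.15 to 3.50, Cdh5 from 0.372 to 0.435 and Esam from 0.758 to 0.852. By their brightest probes all 3 were highest on the heterozygous starch array. A second Tjp1 probe had the opposite sign in every comparison of 1 factor. It read 0.708, 0.668, 0.666 and 0.690, highest on wild-type starch. Of the junction genes, only Cldn5 and Pecam1 were lower by more than 1.2-fold on sucrose in wild-type mice, where 13.8% of all genes were.

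Of the receptors of VEGF, angiopoietin and related ligands, 7 were measured. None of the 7 passed 1.5-fold in any comparison of 1 factor, against 12.5% of all genes, so for so few genes the count lies near that share. Eng alone passed 1.2-fold, on sucrose in wild-type mice, where 13.8% of all genes were lower by that size. Eng, endoglin, a co-receptor for ligands of the TGF-beta family, read 0.406, 0.338, 0.351 and 0.32 and was 1.2-fold lower on sucrose in wild-type mice (log2 -0.27). A second Eng probe had the opposite sign in all 4 comparisons of 1 factor (log2 0.03 and 0.05 for diet, 0.27 and 0.29 for genotype), so the gene's direction is not settled. Flt1, a VEGF receptor, read 5.98, 6.23, 6.87 and 5.78 and was 1.19-fold lower on sucrose in heterozygous mice (log2 -0.25). Over the mean of its 4 probes that difference was -0.08. Robo4, a guidance receptor of endothelial cells, read 1.90, 1.98, 2.13 and 1.83, with the same order of arrays as Flt1.

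Tie1, an orphan receptor that acts with the angiopoietin receptor, read 0.116, 0.122, 0.134 and 0.143. Both heterozygous arrays were above both wild-type arrays (log2 0.21 on starch, 0.22 on sucrose). With normexp background correction the former was 0.11, less than the spot spread of 0.130. Kdr, the main signalling receptor for VEGF, ranged from 0.865 to 1.04 and was lowest on wild-type starch and highest on heterozygous sucrose. Tek, the angiopoietin receptor, ranged from 0.246 to 0.276, and Ramp2, which pairs with the adrenomedullin receptor, from 5.15 to 5.89. By their brightest probes, only Eng of the 7 receptors was lower in heterozygous mice on starch, where 54% of all genes were. Further probes of Flt1 (-0.03), Ramp2 (-0.11) and Eng (0.27) had the opposite sign there. Flt4, the VEGF receptor of lymphatic endothelium, was well above background on both wild-type arrays and not on either heterozygous array. Its signal was 0.011 on wild-type starch, 0.00621 on wild-type sucrose, 0.00647 on heterozygous starch and 0.0074 on heterozygous sucrose. On sucrose the wild-type signal was thus not the higher one, despite the scanner's detection call. On wild-type starch it was at least 1.65-fold higher than on heterozygous starch, taken against the lowest signal that counted as well above background there.

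All 3 ligands were lower on sucrose in wild-type mice, where 50.1% of all genes were. Egfl7 is secreted by endothelial cells and acts on vessel shape. It read 8.84 on wild-type starch, 5.92 on wild-type sucrose, 5.25 on heterozygous starch and 5.84 on heterozygous sucrose. A single array stood high, and the other 3 lay close to each other. Against wild-type starch it was 1.68-fold lower on heterozygous starch (log2 -0.75) and 1.49-fold lower on wild-type sucrose (log2 -0.58). On sucrose the genotypes differed by -0.02.

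Edn1 encodes the vasoconstrictor endothelin 1. It read 0.167, 0.135, 0.165 and 0.12, with both sucrose arrays below both starch arrays. It was 1.24-fold lower on sucrose in wild-type mice (log2 -0.31) and 1.37-fold lower in heterozygous mice (log2 -0.46). Vegfa, the main angiogenic ligand, which astrocytes and neurons also make, read 1.81, 1.56, 1.81 and 1.64. It was lower on sucrose in both genotypes, by -0.21 and -0.15, within 1.2-fold. The other 3 probes of Vegfa were also lower on sucrose in both genotypes.

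Of the 11 transport genes, Mfsd2a, which carries lysophosphatidylcholine with docosahexaenoic acid and restrains transcytosis, ranged widest. It read 2.87 on wild-type starch, 2.18 on wild-type sucrose, 2.21 on heterozygous starch and 2.0 on heterozygous sucrose. It was 1.32-fold lower on sucrose in wild-type mice (log2 -0.40), 1.30-fold lower in heterozygous mice on starch (log2 -0.38) and 1.44-fold lower where both differed (log2 -0.52). Bsg, basigin, the chaperone of the monocarboxylate carriers, read 4.41, 3.44, 3.35 and 3.86. It too was highest on wild-type starch, but on sucrose it was 1.28-fold lower in wild-type and 1.15-fold higher in heterozygous mice.

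The efflux pump gene Abcb1a read 1.46, 1.29, 1.23 and 1.13, so that each of the other arrays was below wild-type starch. Its differences of 1 factor ran from -0.13 to -0.25. A second Abcb1a probe had the same sign as the first for diet in both genotypes, but the opposite sign for genotype (log2 0.27 on starch, 0.13 on sucrose). Abcg2, another efflux pump, ranged only from 2.90 to 3.22 and Abcc4 from 0.594 to 0.635. Slc3a2, the heavy chain of the large neutral amino acid carrier, spanned 0.07 on the log2 scale over the 4 arrays, the least of the 40 genes, at 8.32, 8.51, 8.11 and 8.34. Its other 2 probes did not stay as flat, at -0.39 and -0.15 between the genotypes on starch. Its partner Slc7a5 read 3.77, 3.89, 3.58 and 3.23 and was 1.21-fold lower in heterozygous mice on sucrose (log2 -0.27).

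Tfrc, the transferrin receptor, read 1.33, 1.44, 1.15 and 1.42 and was 1.23-fold higher on sucrose in heterozygous mice (log2 0.30). Its second probe was also higher on sucrose in both genotypes, but the mean over both probes (0.21) was within 1.2-fold, and for genotype the second probe had the opposite sign (0.17 on starch, 0.05 on sucrose). The thyroid hormone and organic anion carrier Slco1c1 ranged from 1.85 to 2.18, and Slco1a4 from 1.13 to 1.28, both within 1.2-fold. Cav1, the coat protein of caveolae, was dim at 0.0309, 0.0254, 0.0248 and 0.0254. Its -0.29 on sucrose in wild-type mice lay within 2 SD of the spot spread at that signal, 0.191. A second, dimmer Cav1 probe read -0.02 there and -0.68 on sucrose in heterozygous mice, so its probes did not show 1 pattern. By their brightest probes, 9 of the 11 transport genes were lower in heterozygous mice on starch, where 54% of all genes were, with a median of -0.10. Second probes of Abcb1a, Tfrc and Cav1 had the opposite sign there, at 0.27, 0.17 and 0.05.

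The Wnt targets Lef1, a transcription factor of the pathway, and Apcdd1, an inhibitor of it, were higher on sucrose in both genotypes and higher in heterozygous mice on both diets. Apcdd1 read 3.70, 3.92, 4.13 and 4.70 and was 1.2-fold higher in heterozygous mice on sucrose (log2 0.26). This was within 1.2-fold under 3 of the 8 alternatives, at 0.17 at the lowest. Of its other 2 probes, 1 was lower on sucrose in wild-type mice and lower in heterozygous mice on starch. Lef1 read 1.03, 1.13, 1.16 and 1.17, within 1.2-fold throughout.

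Of the leukocyte adhesion genes, Selp, P-selectin, read 0.102, 0.0759, 0.0717 and 0.0763. As with Egfl7, the wild-type starch array was the only high one. Selp was 1.34-fold lower on wild-type sucrose (log2 -0.42) and 1.42-fold lower on heterozygous starch (log2 -0.50) than there. Icam1, the ligand of leukocyte integrins, read 0.259, 0.231, 0.293 and 0.28 and was higher in heterozygous mice on both diets, by 0.18 and 0.28. Between the diets its brightest probe differed by -0.16 and -0.06, while a much dimmer second probe, at 0.019 on wild-type starch and 0.00991 on wild-type sucrose, differed by -0.94 and -0.83. Both probes were lower on sucrose, but they did not measure the same size.

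Icam2, a constitutive adhesion molecule of endothelium, read 1.103, 0.97, 1.22 and 0.994. It was lower on sucrose in both genotypes, by -0.19 and -0.30. Vcam1 ranged from 1.52 to 1.69, within 1.2-fold. Sele, E-selectin, which endothelium makes when activated, was not well above background on any array.

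Among the surface antigens Ly6a and Ly6c1 showed the diet difference in both genotypes. Ly6a, also known as Sca-1, read 2.60 on wild-type starch, 1.59 on wild-type sucrose, 2.22 on heterozygous starch and 1.55 on heterozygous sucrose. It was 1.64-fold lower on sucrose in wild-type mice (log2 -0.71) and 1.43-fold lower in heterozygous mice (log2 -0.52). Ly6c1 read 19.1, 12.04, 15.8 and 12.05 and was 1.59-fold lower (log2 -0.67) and 1.31-fold lower (log2 -0.39). For both genes the sucrose arrays lay below both starch arrays, and the sucrose arrays differed from each other by at most 0.03. Together with Edn1 they were the 3 genes lower by more than 1.2-fold on sucrose in both genotypes, against 3.75% of all genes.

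**Figure D3:**
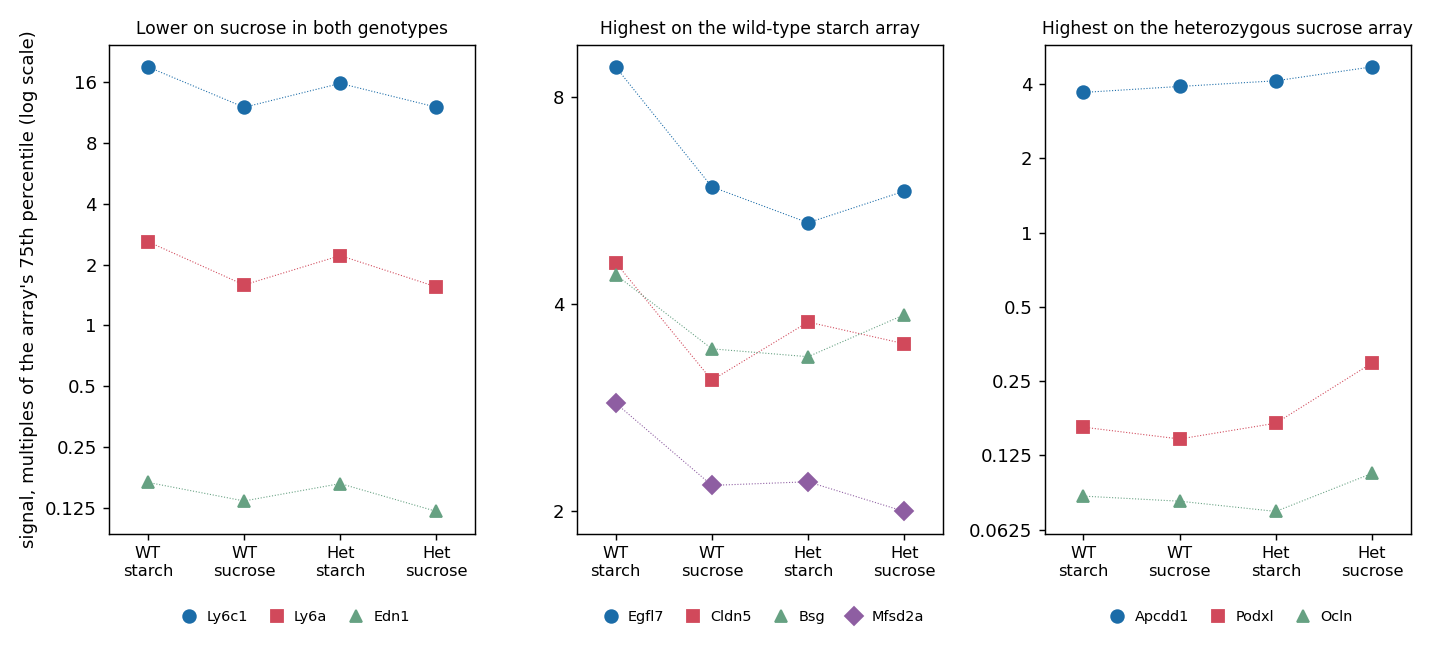
Signal of 10 genes on each array, in multiples of the array's 75th percentile (log2 axis; 1 pooled sample per point, dotted lines join the arrays of 1 gene). On the left Ly6c1, Ly6a and Edn1 are lower on both sucrose arrays. In the middle Egfl7, Cldn5, Bsg and Mfsd2a are highest on the wild-type starch array, and on the right Apcdd1, Podxl and Ocln are highest on the heterozygous sucrose array.

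The Ly6c1 probe lies at chr15:74875495-74875554 and that of Ly6a at chr15:74825553-74825612 (mm9). Ly6c1 and Ly6c2 are near-identical neighbours, and the brightest Ly6c1 probe shared a run of 48 of its 60 bases with the Ly6c2 probe, so their signals cannot be assigned to 1 of these genes. Ly6c2 read 16.0, 10.3, 13.2 and 9.997. A second Ly6c1 probe, at chr15:74877785-74877844, shared no run longer than 6 bases with the probes of the neighbouring Ly6 genes compared with it. Its diet differences were -0.77 in the wild-type and -0.45 in the heterozygous pair of arrays. The Ly6a probe also shared at most 6 bases with them. Runs were compared between probes only, so whether these probes also read other Ly6 transcripts was not tested. The diet difference was read by 3 probes of unlike sequence.

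Podxl read 0.163 on wild-type starch, 0.146 on wild-type sucrose, 0.169 on heterozygous starch and 0.296 on heterozygous sucrose. It was 1.75-fold higher on sucrose in heterozygous mice (log2 0.81) and 2.03-fold higher in heterozygous mice on sucrose (log2 1.02). The other 3 arrays lay close to each other. Cd34, a sialomucin related to podocalyxin, read 8.72, 11.9, 9.02 and 10.2 and was 1.36-fold higher on sucrose in wild-type mice (log2 0.44) and 1.13-fold higher in heterozygous mice (log2 0.18). A second Cd34 probe gave 0.31 and 0.20. Itm2a, a membrane protein of brain endothelium, read 4.04, 4.90, 4.12 and 4.73, with both sucrose arrays above both starch arrays (log2 0.28 and 0.20). Emcn, endomucin, ranged from 0.813 to 0.905, and Nos3, the endothelial nitric oxide synthase, from 2.62 to 2.85, both within 1.2-fold.

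**Figure D4:**
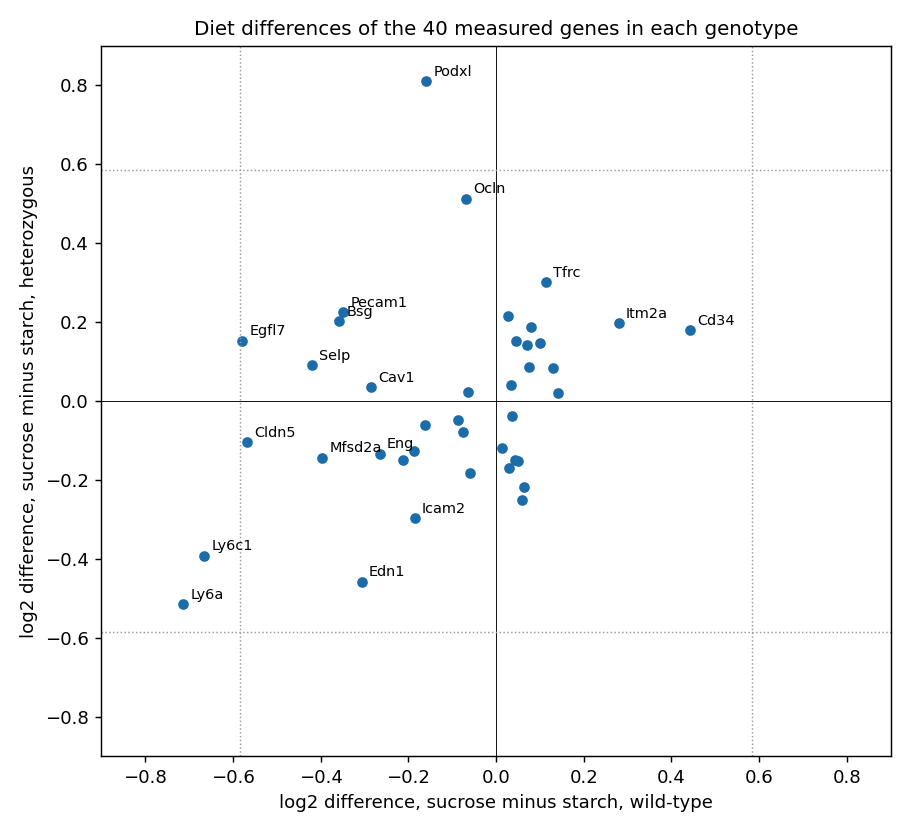
Log2 difference of sucrose against starch in wild-type mice (horizontal) and in heterozygous mice (vertical), 1 point per gene for the 40 measured genes; dotted lines mark 1.5-fold. Ly6a, Ly6c1 and Edn1 lie low on both axes, Egfl7 and Cldn5 low on the wild-type axis, and Podxl high on the heterozygous axis alone.

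The diet difference in wild-type mice and that in heterozygous mice share no array. They had the same sign for 25 of 40 genes, 13 lower and 12 higher in both, against 60.3% of all genes, and correlated across genes with Pearson's r of 0.32 and Spearman's rho of 0.28. Over all genes r was 0.24 and rho 0.29. Genes on 1 array are not independent. The genotype difference on starch and that on sucrose had the same sign for 25 genes, against 57.4% of all genes (r 0.12, rho 0.19; all genes 0.06 and 0.16). The diet difference changed between the genotypes by more than 1.5-fold for 2 of 40 genes, against 8.45% of all genes. These were Podxl (log2 0.97) and Egfl7 (log2 0.73), each of which stood apart on 1 array.

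Other cell types also differed between the arrays, and their values bear on the same comparisons. The summed level of red blood cell markers, such as the globins and Alas2, was 277 on wild-type starch, 135 on wild-type sucrose, 235 on heterozygous starch and 152 on heterozygous sucrose. All 7 that were measured were lower on sucrose, with medians of -1.35 (wild-type) and -0.75 (heterozygous). Cldn5 had the same order of arrays as this sum, and Ly6a and Ly6c1 were likewise lower on sucrose. The part of blood in these differences was not tested. The 12 markers of pericytes and smooth muscle, the other cells of the vessel wall, summed to 17.9, 18.2, 18.5 and 18.5, with medians between -0.06 and 0.10.

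Markers of the choroid plexus, whose epithelium forms another barrier, summed to 1.01, 2.22, 0.945 and 70.0. All 10 were higher on heterozygous sucrose than on heterozygous starch (median 3.90) and than on wild-type sucrose (median 3.78). This is the array on which Podxl and Ocln were highest, and the part of choroid plexus in their levels was not tested. Markers of meningeal fibroblasts summed to 13.1, 12.1, 13.3 and 15.2, and those of striatum to 11.9, 23.4, 19.3 and 11.2. Astrocyte markers summed to 149, 135, 137 and 126, microglial markers to 69.1, 67.3, 65.6 and 64.7, and neuronal markers to 222, 236, 230 and 223. These sums rest on a few bright probes, such as Aldoc for astrocytes and Itgam for microglia, and single markers differed more. The microglial complement genes C1qa (1.82, 1.06, 1.15 and 1.06) and C1qb (1.43, 1.02, 1.003 and 0.972), with Tmem119 (1.53, 1.11, 1.16 and 0.983), were highest on wild-type starch, as were Cldn5, Egfl7 and Mfsd2a. So were the microglial markers Aif1 (2.86, 2.54, 2.52 and 2.36) and Csf1r (18.0, 17.3, 16.7 and 16.8), by less. Cx3cr1, P2ry12 and Itgam were highest on wild-type sucrose. The astrocyte filament gene Gfap read 2.05, 1.29, 2.24 and 2.86 and was higher with the heterozygous genotype on sucrose (log2 1.16), where 5 of the 8 astrocyte markers were lower and their median was -0.06. These single markers were picked after their values had been seen. Immediate early genes summed to 57.1, 38.7, 65.0 and 35.1, lower on sucrose in both genotypes. The part of these in the endothelial differences was not tested.

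**Figure D5:**
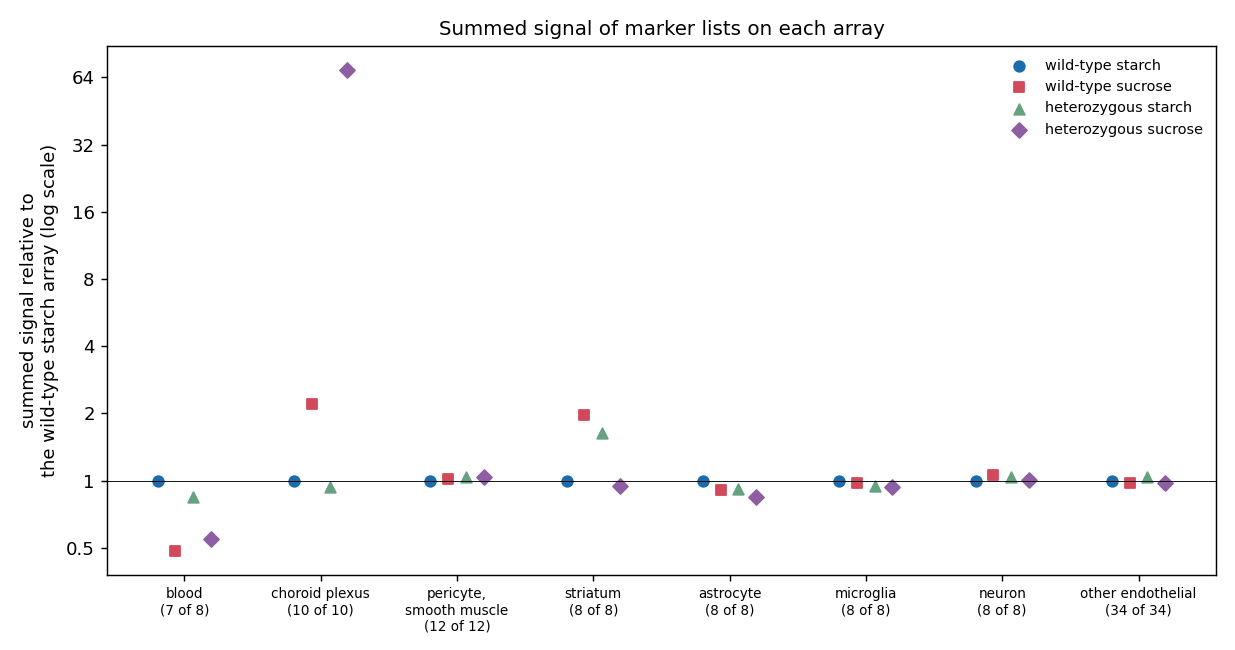
Summed level of the markers of each cell type or region on the 4 arrays, divided by the sum on the wild-type starch array (log2 axis; in brackets, markers measured of those listed). Blood markers are lower on both sucrose arrays, choroid plexus markers are high on the heterozygous sucrose array, and pericyte and other endothelial markers stay near 1.

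A further 34 endothelial genes, all measured, were read as the wider programme: carriers such as Slc2a1, junction genes, caveolar proteins and endothelial transcription factors. Their median difference was -0.03 and -0.06 between the diets in wild-type and heterozygous mice, and 0.03 and 0.05 between the genotypes on starch and sucrose. Lower by more than 1.2-fold on sucrose were 4 of 34 in wild-type mice, where 13.8% of all genes were, and 5 in heterozygous mice, where 8.98% were. Marveld2, tricellulin, alone passed 1.5-fold in a comparison of 1 factor. It read 0.115, 0.114, 0.188 and 0.123, highest on heterozygous starch. The sum over these 34 genes was 69.6, 67.8, 72.4 and 67.8.

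The 21 other genes of VEGF, angiopoietin, Notch and adrenomedullin signalling had medians between -0.04 and -0.01. Of these, Klf4, a flow-responsive transcription factor also made by other cells, passed 1.5-fold, at 2.16, 1.71, 2.41 and 1.53. The 15 genes of Wnt signalling at the barrier had medians between 0.01 and 0.04. Wnt7b, a neural ligand for the barrier endothelium, read 2.49, 2.28, 1.62 and 1.78 and was lower with the heterozygous genotype (log2 -0.61 on starch, -0.36 on sucrose). Fzd4, a receptor of the same pathway, read 0.569, 0.843, 0.666 and 0.873 and was higher on sucrose (log2 0.57 and 0.39).

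Of 10 genes of endothelial inflammation and clotting, 5 passed 1.5-fold in at least 1 of the 4 comparisons of 1 factor, against the 12.5% of all genes given above. The list was chosen with earlier results of these data known, so an excess over that share is no independent observation. Ccl2, Lcn2 and Il1r1 among the 5 were also dim. Lower on both sucrose arrays were Lcn2, lipocalin 2 (0.187, 0.0795, 0.133 and 0.08), Ccl2, a monocyte chemokine (0.0587, 0.0341, 0.053 and 0.0388), and Thbd, thrombomodulin (1.51, 1.09, 1.52 and 0.998). Ptgs2, the inducible cyclooxygenase, which neurons also make, was low on wild-type sucrose at 0.409 against 0.581 to 0.667 on the other arrays. Il1r1, the interleukin 1 receptor of brain endothelium, read 0.135, 0.143, 0.138 and 0.267, high on the heterozygous sucrose array alone, as Podxl was. Choroid plexus markers were high on that array too, and their part in the Il1r1 level was not tested.

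Second and further probes were well above background for 15 of the 40 genes, 21 probes in all. They had the sign of the brightest probe in 13 of 21 cases between the diets in wild-type mice and 16 in heterozygous mice, and in 10 between the genotypes on starch and 12 on sucrose. In 0 cases did 2 probes of a gene differ in sign with both past 1.2-fold. Of the genes with the largest differences, Ly6c1 and Cd34 had a second probe, while Cldn5, Egfl7, Mfsd2a, Ly6a, Podxl, Ocln and Edn1 rested on 1.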

How the data were processed

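Mouse prefrontal cortex of 4 groups was measured, each on 1 one-colour Agilent array. The deposited intensity values are the scanner's processed signals, background-corrected by Agilent Feature Extraction 11.5.1.1 per the file headers and the submitters' processing notes. The authors also deposited a value table whose ratio values equal the processed signal divided by 1 constant per array, constant to within 4.5e-07 (relative). The constants, 1781 to 1929, lay close to the 75th percentiles computed here, 1780 to 1929.

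Here each processed signal was divided by its array's 75th percentile of non-control signal, and log2 was taken. Spots marked as outliers by the scanner software were left out, spots of a probe were averaged, and probes had to be well above background on all 4 arrays; 42094 of 56605 were. The brightest probe stood for a gene. With 1 array per group no test on replicates was possible. An additive fit of diet and genotype over the 4 arrays, which would take the interaction as error, was not made. The script was checked on simulated data. Members and lists were chosen with earlier results of these data known. Genes were named in detail by rule: past 1.5-fold, the extremes of the mean diet and genotype differences and of the interaction, and the brightest of each role; the others are given more briefly. The 1.2-fold size was set after the data had been seen. Probe coordinates are mm9, per the file headers; promoters came from RefSeq. Alternatives were normexp background correction with an offset of 50 (limma 3.58.1, R 4.3.3), quantile and median scaling, other filters, the mean over probes, outlier spots kept and the authors' deposited table. Python 3.11.15 was used.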

Additional observations from a re-analysis of the deposited data

How the results depend on the processing

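With 1 pooled array per group, no replicate could be left out. Pairing by animal was not possible because each group is 1 pool on 1 array. A fit with diet and genotype as additive factors was not made. Over the 6 comparisons, 59 differences of the 40 genes were past 1.2-fold, and all but 1 of them kept their sign under each of the 8 alternatives that kept the gene. The exception was the change of the Cav1 diet difference between genotypes (0.32), which was -0.17 with the mean over its probes. All 5 differences past 1.5-fold of single genes between arrays that differ in 1 factor (Ly6a and Ly6c1 between the diets in wild-type mice, Podxl between the diets in heterozygous mice and between the genotypes on sucrose, Egfl7 between the genotypes on starch) stayed past it wherever the probe was kept. Podxl on sucrose ran from 0.85 to 1.02.

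With only probes above the median signal kept, which drops Podxl and the other dim genes, the median difference between the diets in wild-type mice was 0.028. The genes lower by 1.2-fold then numbered 7 there and 5 between the genotypes on starch. Past 1.5-fold there were 0 between the diets in heterozygous mice, 0 between the genotypes on sucrose and 1 for the change of the diet difference between genotypes. Without a filter on dim probes, 2 passed 1.5-fold between the genotypes on starch. Between the genotypes on sucrose the genes lower by 1.2-fold numbered 0 with normexp, 0 with quantile normalization and 3 with the mean over probes. With quantile normalization 2 genes passed 1.5-fold where both factors differed. The cause of the changes under normexp and quantile normalization was not tested. Across the alternatives 21.2% to 28.6% of the genes were lower by 1.2-fold on sucrose in wild-type mice, against 7.43% to 17.8% of all genes. Under 1 to 4 alternatives, 9 of the differences past 1.2-fold between arrays that differ in 1 factor fell within it: Eng, Cav1 and Edn1 (diet, wild-type), Tfrc (diet, heterozygous), Ly6c1 and Cav1 (genotype, starch), and Slc7a5, Apcdd1 and Icam1 (genotype, sucrose). Dim probes (Podxl, Ocln, Selp, Pecam1, Tie1, Edn1, Cav1) carry the largest spot error.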

Other observations

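Other Ly6 genes differed in direction between the diets. Ly6g, a neutrophil antigen, read 0.125 on wild-type starch, 0.0706 on wild-type sucrose, 0.0993 on heterozygous starch and 0.0731 on heterozygous sucrose, lower on sucrose by -0.83 and -0.44. Its probe shared no run longer than 6 bases with those of the neighbouring genes compared with it. Whether it also reads their transcripts was not tested. Ly6e, a broadly expressed neighbour, read 7.29, 7.53, 6.76 and 7.77, within 1.2-fold in both genotypes. Ly6g6e read 1.71, 1.08, 1.49 and 1.04, lower on sucrose by -0.67 and -0.53. Ly6d was higher on sucrose (log2 1.003 and 0.69), while Ly6k (-0.48 and 0.34) and Ly6i (-0.44 and 0.08) were lower in the wild-type pair of arrays alone. These last genes were dim: Ly6d read 0.0206 to 0.0484, Ly6k 0.0214 to 0.0309 and Ly6i 0.0459 to 0.0622. These genes were picked after their values had been seen.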
